A study of Mus musculus with 30 samples.

Results

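Primary microglia that lack Lrrk2 were compared with wild-type microglia after both had been treated with lipopolysaccharide (LPS). The 10 libraries of this comparison, 4 from knockout (KO) and 6 from wild-type cultures, were taken from a series of 30 by genotype and treatment in the sample labels. Both genotypes are labelled C57BL/6 at postnatal day 21, the knockout as Lrrk2-/-, and each library is total RNA of primary microglia from mouse brain depleted of ribosomal RNA. The other 20 libraries are untreated controls (6 KO, 5 wild type) and cultures given fibrils of α-synuclein (5 KO, 4 wild type), and they entered the model only to estimate the spread and to set the LPS values beside those of the other treatments. The sources used here give neither the LPS dose and time of exposure nor the sex and the deleted part of Lrrk2. Nothing there says whether libraries of a group came from separate animals or cultures, so p-values measure the spread between libraries, which may be technical.

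LPS, a component of the outer wall of Gram-negative bacteria, binds Toll-like receptor 4 (TLR4) on microglia, the resident macrophages of the brain. From the cell surface the receptor signals through the adaptor MyD88 and the kinase IRAK4 to NF-kB and cytokine genes, and from endosomes through the adaptor TRIF to interferon regulatory factors, type I interferon and the interferon-stimulated genes. LRRK2 is a large kinase and GTPase found in macrophages and microglia, where it phosphorylates Rab proteins on membranes, and its variants are linked to Parkinson's disease.

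Interferon-stimulated genes carry a common promoter element, the interferon-stimulated response element, and 3 of their promoters are shown because this list had the lowest median of all the lists examined (values further on). Each sequence is the 250 bases before and 50 after a transcription start in RefSeq, build GRCm38.p6, on the gene's strand, and capitals mark matches, on either strand, to GAAA followed by 2 bases of any kind and GAAA again (matches may overlap each other).
Ifit1 (chr19:34640639-34640938, plus strand): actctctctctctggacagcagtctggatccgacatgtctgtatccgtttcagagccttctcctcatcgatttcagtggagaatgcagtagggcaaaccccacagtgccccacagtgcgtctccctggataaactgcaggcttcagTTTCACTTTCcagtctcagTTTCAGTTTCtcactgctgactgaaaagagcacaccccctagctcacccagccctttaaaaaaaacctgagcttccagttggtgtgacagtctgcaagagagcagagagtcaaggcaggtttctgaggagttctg
Ifit3 (chr19:34583279-34583578, plus strand): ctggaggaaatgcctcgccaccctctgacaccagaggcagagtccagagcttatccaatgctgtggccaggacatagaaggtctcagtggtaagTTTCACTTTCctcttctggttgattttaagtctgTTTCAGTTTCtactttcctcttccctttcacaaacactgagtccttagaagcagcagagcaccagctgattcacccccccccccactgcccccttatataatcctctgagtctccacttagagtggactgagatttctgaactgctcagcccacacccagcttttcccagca
Isg15 (chr4:156200769-156201068, minus strand): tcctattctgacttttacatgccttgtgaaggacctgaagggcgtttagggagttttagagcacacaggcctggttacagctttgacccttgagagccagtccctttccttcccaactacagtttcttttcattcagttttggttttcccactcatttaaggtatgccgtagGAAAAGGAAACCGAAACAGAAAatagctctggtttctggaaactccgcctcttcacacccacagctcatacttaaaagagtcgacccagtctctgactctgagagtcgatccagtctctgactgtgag
Of the 34 interferon-stimulated genes tested, 24 matched the promoter table by symbol, and 16 of these (66.7%) held the motif, against 3.99% of all 27025 genes in the table. Genes lower in KO held it in 5 of 150 matched genes (3.33%) and genes higher in KO in 0 of 41. A match is a description of these letters and says nothing about binding.

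The targeted gene followed the labels. Lrrk2 (ENSMUSG00000036273, chr15:91673175-91816120 on GRCm38, plus strand) had 3.56, 2.22, 4.68 and 3.52 normalized counts scaled to library size (CPM) in KO LPS libraries 1 to 4 and 15.3, 15.7, 15.4, 15.9, 15.9 and 11.4 CPM in wild-type LPS libraries 1 to 6. All KO libraries lay below all wild-type libraries, with a log2 difference of -2.09 ± 0.23 (SE; adjusted p = 4.7e-06). The difference in mean CPM was -11.4, with an exact two-sided permutation p of 0.00476, the smallest that 210 splits of 10 libraries allow. Residual counts fell mostly on the protein-coding transcript Lrrk2-201, with 45, 33, 89 and 60 reads in the KO libraries and 151 to 371 in the wild type. LPS treatment was visible in both genotypes: Tnf, the founding pro-inflammatory cytokine of its family, was 4.11 ± 0.22 log2 units above controls in KO and 4.32 ± 0.23 in wild type.

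Several features of the libraries moved with genotype. Gene totals of the 10 libraries ran from 14277344 to 29409375 counts and overlapped between groups. Mitochondrial ribosomal RNA took 0.536% to 0.866% of gene counts in KO LPS and 1.79% to 3.98% in wild-type LPS libraries, without overlap, and mt-Rnr2 was itself called lower (-1.83 ± 0.38, SE). In controls the ranges of mt-Rnr2 overlapped, with KO at 5280 to 31440 CPM and wild type at 7495 to 21021 CPM. Xist, transcribed from the inactive X chromosome of females, ran from 265 to 648 CPM in the KO libraries and from 873 to 1624 CPM in the wild-type ones (-1.57 ± 0.37, SE, adjusted p = 0.0295). The Y-linked genes Ddx3y, Uty, Kdm5d and Eif2s3y were called higher in KO by 0.90 to 1.03 log2 units, with Ddx3y at 129 to 169 CPM against 70.3 to 90.6 CPM. All 10 libraries held both Xist and Y-linked RNA. In 30 fits that each left out 1 library mt-Rnr2 was called 29 times, Xist 26 and the 4 Y-linked genes 25 to 27 times. The 10 microglia and macrophage markers summed to 5217 to 5680 CPM in KO libraries, against 5254 to 5883 CPM for the wild type, and none of these markers was called. The 13 astrocyte markers summed to 35.1 to 213 CPM and 13.8 to 289 CPM, the 13 oligodendrocyte markers to 103 to 445 CPM and 75.01 to 184 CPM, and none was called. The 9 border and peripheral macrophage markers summed to 1444 to 1736 CPM in KO and 1733 to 2113 CPM in wild type, with Ms4a7 called lower. The 13 fibroblast and leptomeninges markers summed to 44.3 to 95.5 and 47.9 to 155 CPM. Those of endothelium and pericytes summed to 7.19 to 13.5 and 8.06 to 18.3 CPM. Neuron, lymphocyte, and neutrophil and mast cell markers summed to at most 17.7, 3.25 and 1.21 CPM in any library. Of the single markers in these lists, Ly6c2, Cldn5, Cd3e, Cd3g, Nkg7, Gzma, S100a9, Ly6g, Retnlg and Cpa3 were at 0 in all 10 libraries. Wild-type LPS library 1 held the most astrocyte RNA and library 6 the least.

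**Figure D1:**
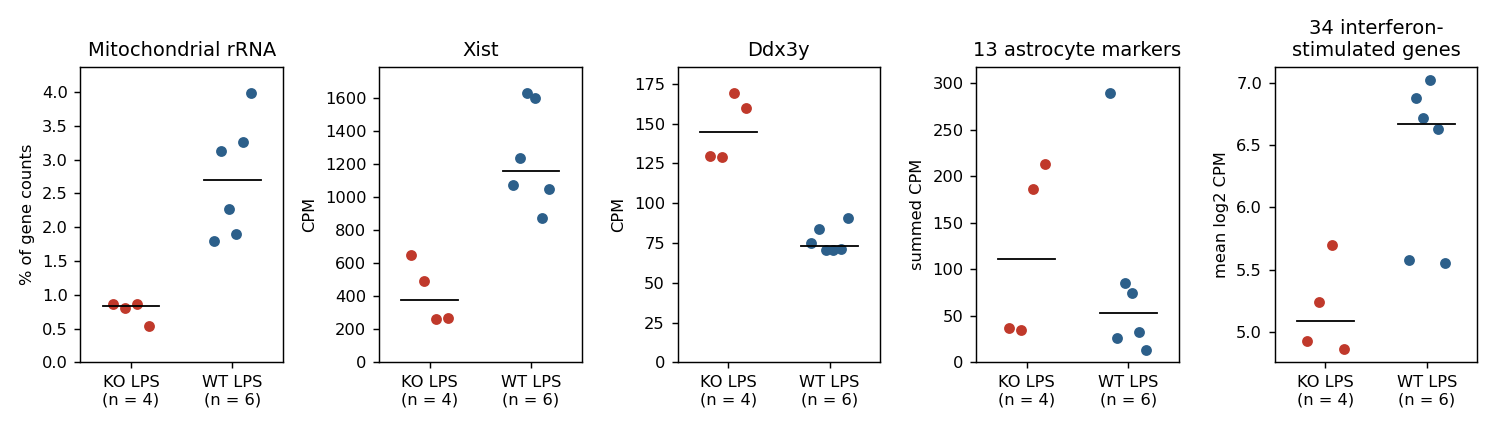
Library features of the 4 KO and 6 wild-type (WT) LPS libraries: share of gene counts on mitochondrial rRNA (%), Xist and Ddx3y (CPM), summed CPM of 13 astrocyte markers and mean log2 CPM of 34 interferon-stimulated genes. Points are libraries and lines medians. Mitochondrial rRNA, Xist and Ddx3y do not overlap between genotypes, and wild-type libraries 1 and 6 lie at 5.58 and 5.55 log2 CPM for the interferon-stimulated genes, below the highest KO library.

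Of 14346 genes tested, 248 (1.73%) passed an adjusted p of 0.05 between KO and wild type with LPS. Of these, 68 (0.474%) were higher and 180 (1.25%) lower in KO. The same test called 46 genes (0.321%) in controls and 1282 (8.94%) with fibrils. Groups of CPM values did not overlap for 1190 genes (8.29%), 748 (5.21%) with KO below and 442 (3.08%) with KO above, and these included 221 of the 248 called genes. With library totals as the only scaling the split turned, to 126 higher and 57 lower, and the median log2 difference over all genes moved from 0.02 to 0.11. Single libraries moved the count: it was 64, 125 and 35 without KO LPS library 1, 2 or 4, and 123, 107 and 115 without wild-type LPS library 3, 5 or 6. It was 478 without KO control library 6 and 436 without KO fibril library 5, which are in neither group compared, and 1097 when only the 10 LPS libraries were fitted. With the level of mitochondrial rRNA as a covariate 9 genes were called, 8 of them among the 248, and with the level of the Y-linked genes 30, of which 22 were among the 248. The description therefore starts from the 33 genes that were called in the full model and in every one of 30 fits that each left out 1 library, with some other called genes of the same regions or families beside them.

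**Figure D2:**
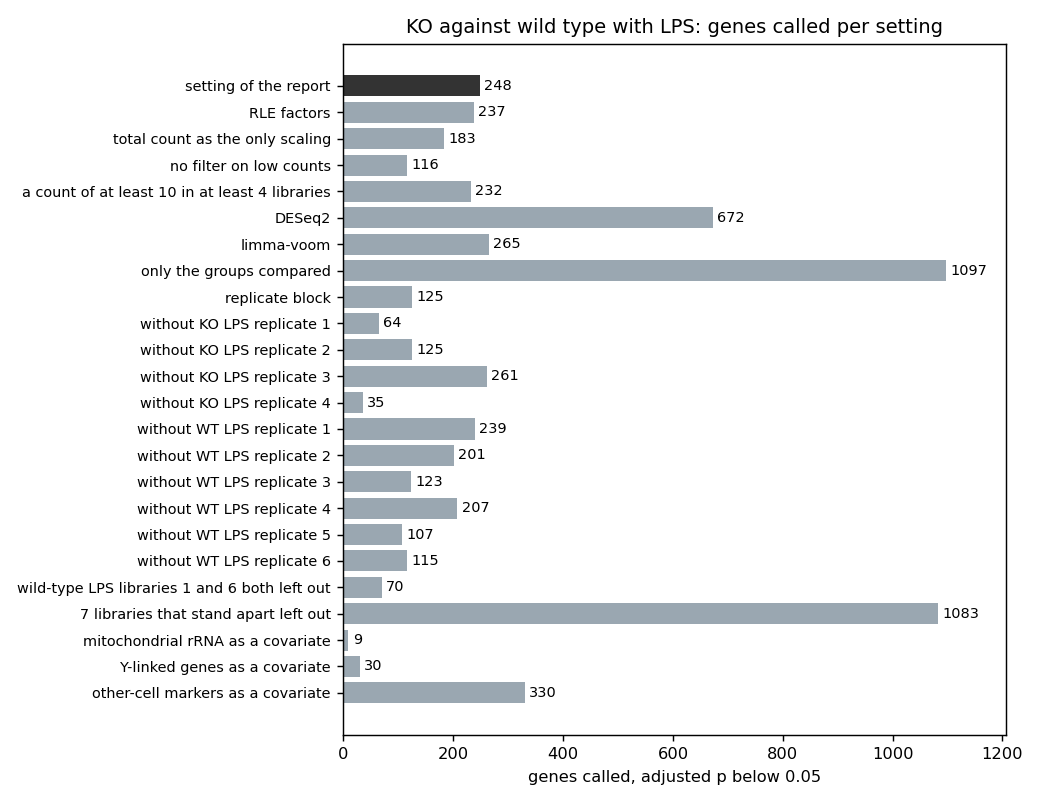
Number of genes called between KO and wild type with LPS (x axis) under each setting, with the value of the report in black and alternatives in grey. Counts run from 9 with mitochondrial rRNA as a covariate to 1097 when only the compared groups were fitted, and leaving out 1 LPS library gave 35 to 261.

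Of these 33 genes, 14 were higher and 19 lower in KO. The groups did not overlap in any of them, beside 221 of the 248 called genes and 8.29% of all genes. Choosing the 33 by calls on the same libraries favours such genes. The 8 genes Irak4, Nnt, Gm14548, Lrrk2, Zfp61, 1500015A07Rik, Gm17383 and Gm14150 were called under all 43 alternatives run.

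Irak4 (chr15:94543643-94581815), the kinase that MyD88 recruits to start the signal from Toll-like receptors, had the smallest p of all genes. Its level was 16.1, 16.3, 16.8 and 14.2 CPM in KO and 33.1, 28.5, 33.4, 30.3, 33.1 and 31.8 CPM in wild type. Every KO library lay below every wild-type library, with a log2 difference of -1.0 ± 0.084 (SE; adjusted p = 4e-08). Most of its counts fell on the transcript Irak4-201, with 248 to 385 reads in the KO libraries and 360 to 890 reads in wild-type libraries. The gene starts 2.73 Mb after the end of Lrrk2 on the same chromosome, and it was also lower in controls (-0.65 ± 0.076, adjusted p = 8.1e-06) and with fibrils (-0.65 ± 0.084, adjusted p = 4.2e-05). With mitochondrial rRNA as a covariate the difference was -0.86 and with the Y-linked genes -0.93.

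Nnt, the nicotinamide nucleotide transhydrogenase of the inner mitochondrial membrane that supplies NADPH, is a gene known to differ between C57BL/6 substrains. It lay at 72.98, 71.9, 75.1 and 79.9 CPM in KO and 36.7, 33.4, 36.99, 35.9, 35.1 and 34.3 CPM in wild type, a log2 difference of 1.08 ± 0.10 (SE; adjusted p = 9.7e-08). With mitochondrial rRNA as a covariate the difference was 1.15 and with the Y-linked genes 1.11. The excess was unequal between its transcripts. Nnt-201 (ENSMUST00000069902) had 375, 318, 345 and 362 reads in KO and 5, 107, 120, 116, 109 and 74 in wild type, which was 18.2 to 33.3% of the Nnt counts of a KO library and 0.852 to 24.1% of those of a wild-type library. Reads assigned to transcripts of one gene depend on how the counting program shared ambiguous reads, and that program is not named in the labels or the file.
Atp10d, a phospholipid-transporting ATPase that GENCODE lists as a polymorphic pseudogene in this strain, was at 20.3, 18.8, 22.7 and 22.2 CPM in KO and 12.1, 8.48, 8.21, 6.94, 7.12 and 6.98 CPM in wild type (1.34 ± 0.17, SE; adjusted p = 3.6e-05). Wild-type library 1 was the highest of its group, and the lowest KO library still lay above it. Nnt and Atp10d were the called members among 7 tested genes of a list known to vary between C57BL/6 substrains, beside 1.73% called over all genes. The median difference of the 7 was 0.14 against 0.02 over all genes, and 2 of them were negative. This list, too, was chosen with earlier results of these data known.

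**Figure D3:**
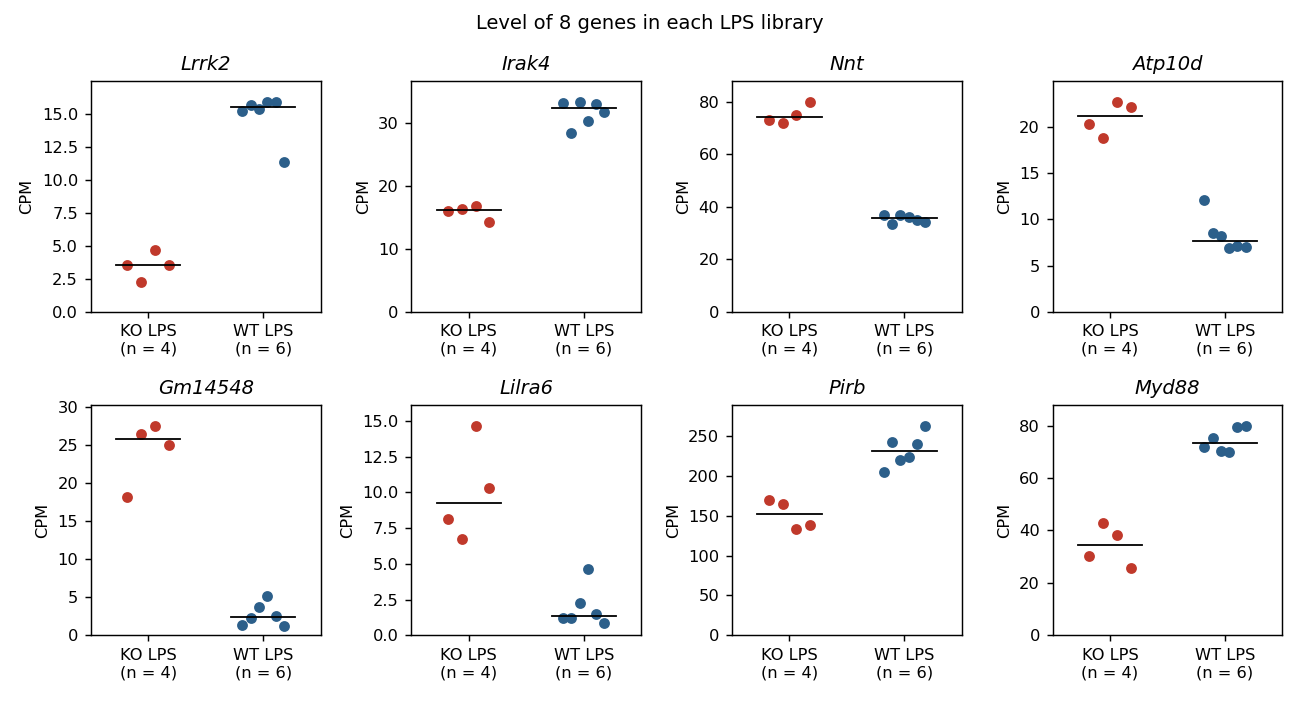
Level (CPM, linear axis from 0) of 8 genes in each of the 4 KO and 6 wild-type (WT) LPS libraries. Points are libraries and lines medians. In each panel the KO and wild-type libraries do not overlap, with Lrrk2, Irak4, Pirb and Myd88 below and Nnt, Atp10d, Gm14548 and Lilra6 above the wild type.

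A cluster of receptor genes on chromosome 7 changed in both directions. The paired immunoglobulin-like receptors and their Lilr relatives are activating or inhibitory receptors of myeloid cells, some of which bind MHC class I, and 5 called genes of this kind lie within 204.1 kb (chr7:3711409-3915503). The list of this family held 8 tested genes, 1 called higher and 2 lower (median -0.02), beside 0.474% and 1.25% of all genes. Gm14548 and Gm15925 were not on that list, so the 5 are not a share of it. Gm14548, annotated as a protein-coding gene, was at 18.1, 26.5, 27.5 and 25.1 CPM in KO and 1.38, 2.33, 3.72, 5.23, 2.58 and 1.30 CPM in wild type (3.14 ± 0.29, SE; adjusted p = 1.2e-07). Lilra6 followed the same direction, at 8.17, 6.78, 14.7 and 10.3 against 1.19, 1.19, 2.26, 4.63, 1.49 and 0.864 CPM (2.39 ± 0.36, SE; adjusted p = 0.000486). The pseudogene Gm15925 was at 0.972, 1.63, 2.06 and 1.46 CPM in KO and at 0 in 3 of the 6 wild-type libraries, with 0.339 CPM at most in the others. In contrast Pirb, an inhibitory receptor, was lower in KO, at 169, 165, 133 and 139 against 204, 243, 219, 224, 239 and 263 CPM (-0.62 ± 0.091, SE; adjusted p = 0.000394). Pira2, an activating receptor, was lower as well (-1.29 ± 0.26, SE; adjusted p = 0.00994), with 1 KO library inside the wild-type range of 16.5 to 42.8 CPM. These genes are near-identical copies, and reads shared among them make their single values uncertain. The first 10 Mb of chromosome 7 held 11 called genes of 73 tested (15.1%), and the next 10 Mb held 12 of 96 (12.5%), 11 of them lower, beside 1.73% over all genes and 3.53% over chromosome 7. Among the latter were both receptors of the complement fragment C5a. C5ar1, which signals through G proteins, was at 296, 337, 203 and 166 CPM in KO and 605, 608, 491, 436, 427 and 731 CPM in wild type (-1.13 ± 0.24, SE; adjusted p = 0.0154). C5ar2, which does not couple to G proteins, was at 5.31, 5.86, 1.15 and 2.27 against 10.3, 15.99, 10.4, 10.2, 11.6 and 17.6 CPM (-1.81 ± 0.39, SE; adjusted p = 0.0164). These were the called members of 17 complement genes tested (0 higher, 2 lower, median -0.20). Without KO LPS library 4 the adjusted p was 0.0965 for C5ar1, 0.0965 for C5ar2 and 0.0781 for Pira2. Slc1a5, a glutamine transporter in the same window, was lower (-1.02 ± 0.23, SE; adjusted p = 0.02) and was called in 27 of the 30 fits.

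Around Lrrk2 itself 178 genes within 10 Mb were tested, 2 of them higher and 5 lower besides Lrrk2, beside 0.474% and 1.25% of all genes, with a median difference of 0.01. Kif21a, a kinesin motor gene 0.623 Mb before Lrrk2, was at 9.59, 9.49, 9.24 and 10.5 CPM in KO and 4.75, 0.467, 1.39, 1.05, 0.568 and 0 CPM in wild type, where library 1 stood above the rest (2.83 ± 0.57, SE; adjusted p = 0.00924). Mcat, which makes malonyl groups available for mitochondrial fatty acid synthesis, was also higher (0.51 ± 0.12, SE; adjusted p = 0.0336). Plxnb2, a receptor for semaphorins, was lower at 378, 383, 464 and 407 CPM against 589.8, 554, 597, 526, 572 and 632 CPM (-0.50 ± 0.094, SE; adjusted p = 0.00566). Tob2 (-0.62 ± 0.12), Rpap3 (-0.46 ± 0.11) and Nfam1 (-0.67 ± 0.17) were the other lower genes, Tob2 an antiproliferative protein that bridges mRNA to deadenylases and Nfam1 an immunoreceptor adaptor (adjusted p = 0.00743, 0.0336 and 0.0445). Mcat, Rpap3 and Nfam1 are outside the 33 genes and were called in 25, 23 and 16 of the 30 fits that left out a library.

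NAIP proteins sense flagellin and bacterial secretion systems for the NLRC4 inflammasome, and their genes are near-identical copies. The pseudogene Naip3 was at 3.76, 3.36, 2.97 and 4.25 CPM in KO and 0.125, 1.44, 0.584, 0.299, 0.350 and 1.37 CPM in wild type (2.35 ± 0.45, SE), while Naip2, outside the 33 genes, was lower at 88.2, 90.7, 78.3 and 77.2 against 98.4, 126, 117, 129, 123 and 109 CPM (-0.48 ± 0.10, SE; adjusted p = 0.00924). Without KO LPS library 4 the adjusted p of Naip2 was 0.0781. It was the called member of 17 inflammasome genes tested (median -0.17), beside 1.73% called over all genes. Other Naip genes of that list went both ways. Naip1 was at 2.20 ± 0.73, Naip5 at -0.70 ± 0.24 and Naip6 at 0.31 ± 0.24 (SE; adjusted p = 0.111, 0.113 and 0.521). Processed pseudogenes Gm17383 (10.9, 7.16, 5.63 and 5.49 against 1.00, 0.636, 1.79, 0.672, 0.568 and 0.648 CPM) and Gm14150 (11.3, 16.8, 18.005 and 15.8 against 4.13, 3.99, 3.47, 4.18, 1.88 and 1.73 CPM) and the antisense transcript 1500015A07Rik (9.33, 10.7, 11.1 and 10.9 against 4.00, 4.03, 3.87, 2.39, 4.63 and 3.96 CPM) were higher in KO. The value of an antisense gene depends on whether the counting used strand, which is not stated for these counts.

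Rps16, a protein of the small ribosomal subunit, had the lowest value of the 33 genes. It was at 13.4, 14.7, 9.12 and 7.38 CPM in KO and 37.1, 118, 55.1, 34.9, 121 and 177 CPM in wild type (-3.03 ± 0.56, SE; adjusted p = 0.00566), and the wild-type values were spread widely. It was the called member of 78 ribosomal protein genes, whose median difference was 0.03, beside 1.73% called over all genes. Its levels and the mitochondrial rRNA share were both highest in wild-type library 6 and both lowest in wild-type libraries 1 and 4 among the wild types. With mitochondrial rRNA as a covariate the difference of Rps16 was -0.40 (adjusted p = 0.98), and without wild-type LPS libraries 1 and 6 it was -2.89. Ms4a7, a four-pass membrane protein of macrophages, was at 532, 534, 693 and 654 CPM in KO and 835, 832, 945, 1049.5, 1045 and 930.3 CPM in wild type (-0.64 ± 0.11, SE; adjusted p = 0.00365). All 6 tested genes of the Ms4a family had negative values, with Ms4a7 called, beside 47.1% negative and 1.73% called over all genes. Prex1, an exchange factor that activates Rac, lay at 138, 136, 202 and 161 against 281, 258, 309.6, 281, 302 and 376 CPM (-0.92 ± 0.17, SE; adjusted p = 0.00566). Fyb, an adaptor between immune receptors and actin, lay at 160.4, 187, 258 and 178 against 351, 305, 357, 336, 359 and 400.1 CPM (-0.84 ± 0.16, SE; adjusted p = 0.00566). Tpcn1, an ion channel of endosomes and lysosomes, lay at 30.3, 32.1, 36.4 and 31.1 against 52.3, 46.6, 58.9, 54.8, 60.9 and 56.1 CPM (-0.76 ± 0.14, SE; adjusted p = 0.00514). With mitochondrial rRNA as a covariate Ms4a7 was at -0.56 (adjusted p = 0.567) and Tpcn1 at -0.56 (adjusted p = 0.923). In each of these 4 genes the highest KO library stayed below the lowest wild-type library.
Csnk2b, the regulatory subunit of casein kinase 2, was lower (-0.58 ± 0.092, SE), as were the vesicle protein gene Syngr2 (-0.54 ± 0.08), Heatr5a (-0.52 ± 0.09) and Smg9 (-0.49 ± 0.10), the last a component of nonsense-mediated mRNA decay. Gtf2h2, a subunit of the transcription and repair factor TFIIH, was higher (0.68 ± 0.12, SE). Zfp61 rose from 0.750, 1.44, 0.985, 0.971, 1.05 and 1.15 CPM in wild type to 3.31, 2.71, 3.33 and 3.35 CPM in KO (1.57 ± 0.18, SE; adjusted p = 4.7e-06). Zinc-finger genes named by number, a family rich in repressors of transposons, held 6 higher and 2 lower of 316 tested, beside 0.474% and 1.25% of all genes. Their median was 0.14, and 0.23 with library totals as the only scaling, beside 0.02 and 0.11 over all genes. Zfp760 was the other of the 6 within the 33 genes (0.93 ± 0.17, SE). By position, Zfp61, Smg9 and Rps16 lie in chr7:20000001-30000000, where 7 of 119 tested genes were called (5.88%), beside 1.73% of all genes.

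Within the TLR4 pathway edgeR called 1 gene in each of 2 lists. Of 10 receptors and adaptors 0 were higher and 1, Myd88, was lower, beside 1.25% of all genes, and the median was -0.19. DESeq2 called 3 of the 10 and 2 of the 19 kinases and ubiquitin ligases, beside 5.19% of the genes it tested. Myd88, the adaptor that links most Toll-like receptors to IRAK4, was at 30.4, 42.95, 38.3 and 25.9 CPM in KO and 71.7, 75.3, 70.3, 69.96, 79.5 and 79.9 CPM in wild type, without overlap (-1.11 ± 0.22, SE; adjusted p = 0.00774). Without KO LPS library 4 its adjusted p was 0.0739. With mitochondrial rRNA as a covariate its difference was -0.55 (adjusted p = 0.968) and with the Y-linked genes -0.82 (adjusted p = 0.206). Tlr4 itself was at 179.8, 179, 183 and 185 CPM in KO and 159.7, 197, 185, 202, 181 and 159.6 CPM in wild type, overlapping, with a difference of 0.0087 ± 0.11 (SE; adjusted p = 0.978). Ticam2, the bridging adaptor of the TRIF arm, had the next smallest p of the list (-0.74 ± 0.23, SE; adjusted p = 0.0855). Among 19 kinases and ubiquitin ligases downstream, Irak4 was the called member (median -0.15), and Ikbkg, the regulatory subunit of the IkB kinase complex, came next (0.48 ± 0.14, SE; adjusted p = 0.0733). Mean log2 CPM of the 10 receptors and adaptors ran from 5.24 to 5.55 in the KO libraries and from 5.61 to 5.80 in the wild-type ones, without overlap. This was not particular to that list. The kinases and ubiquitin ligases (KO up to 5.82, wild type from 5.88) and the NF-kB and cytokine lists below also had KO means under the wild type. The list of substrain genes had KO means above it. Over single genes 8.29% did not overlap. Members of the receptor and adaptor list were uneven: Cd180 (-1.15 ± 0.36, SE) lay near Myd88, while Ly96 was at -0.054 ± 0.13, Tlr2 at -0.15 ± 0.16 and 2 were positive. With library totals as the only scaling the list's median was -0.10, beside 0.11 over all genes.

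Of 17 NF-kB subunits and feedback inhibitors 3 were lower and 0 higher, with a median of -0.32 and 15 negative values, beside 1.25% lower and 47.1% negative over all genes. With library totals as the only scaling 1 was called lower and 12 were negative, beside 0.397% and 36% over all genes. Rela, the p65 transactivating subunit, was at 83.3, 91.4, 88.3 and 70.05 CPM in KO and 110.4, 135, 114, 112, 122 and 136 CPM in wild type (-0.54 ± 0.11, SE; adjusted p = 0.0112). Nfkb1, which encodes p105 and p50, was at 174, 182, 201 and 178 against 232, 237, 229, 228, 239 and 355 CPM (-0.46 ± 0.12, SE; adjusted p = 0.0471). Tnip1, which with A20 restrains the pathway, was at 77.002, 87.7, 66.98 and 48.2 against 121, 116, 99.02, 88.1, 111 and 159 CPM (-0.73 ± 0.19, SE; adjusted p = 0.0452). Rela was called in 29, Tnip1 in 17 and Nfkb1 in 15 of the 30 fits that left out a library, and the exception for Rela was KO LPS library 4 (adjusted p = 0.0964). The classical feedback inhibitor Nfkbia lay at 893, 913, 880.5 and 873 CPM in KO and 649, 876, 823, 846, 891 and 1273 CPM in wild type, a difference of -0.0051 ± 0.19 (SE; adjusted p = 0.99).

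All 16 cytokines tested had negative differences (median -0.60), and edgeR called Ebi3 alone of them, while DESeq2 also called Tgfb1 (adjusted p = 0.0249). Ebi3, the beta chain of interleukins 27 and 35, was at 38.4, 44.7, 68.3 and 55.2 CPM in KO and 105, 62.4, 85.8, 91.02, 97.998 and 83.3 CPM in wild type (-0.76 ± 0.17, SE; adjusted p = 0.02), and 1 KO library at 68.3 CPM exceeded the wild-type minimum. Its adjusted p was 0.118, 0.0737 and 0.0781 without KO LPS library 1, 2 or 4. With library totals as the only scaling 13 of the 16 stayed negative and 0 were called. Tnf was at 2071, 2199, 1909.8 and 1777 CPM in KO and 1776, 1905, 1812, 1785, 1921 and 2757 CPM in wild type, with overlapping groups and a difference of -0.0023 ± 0.21 (SE; adjusted p = 0.995). Il1b was below the wild type in every KO library, at 718, 775, 926 and 841 against 1163, 1050.2, 998, 1034, 1249 and 2029 CPM, but did not pass the test (-0.62 ± 0.55, SE; adjusted p = 0.583). Such a gap, with KO below, was seen for 4 of the 16 cytokines, beside 5.21% of all genes. Il6 was at 17.4, 16.3, 32.6 and 15.8 against 25.95, 15.2, 42.1, 46.5, 43.2 and 5.62 CPM (-0.53 ± 0.66, SE; adjusted p = 0.712), and Il10 and Tgfb1 differed by -0.66 ± 0.56 and -0.84 ± 0.25 (SE; adjusted p = 0.569 and 0.0768). Ifnb1, the type I interferon induced through TRIF, was at 7.45, 13.7, 10.03 and 5.79 against 7.63, 18.4, 12.5, 16.3, 13.7 and 10.4 CPM (-0.51 ± 0.38, SE; adjusted p = 0.514). None of 23 chemokines and receptors (median -0.21), 16 TNF superfamily genes (-0.23) or 30 immediate early genes and MAP kinase phosphatases (-0.35) was called by edgeR. In that order 0, 1 and 5 of them had an unadjusted p under 0.05, beside 17.2% of all genes. DESeq2 called 0, 0 and 1 of them, beside 5.19% of the genes it tested. Among 18 genes of SOCS proteins and cytokine mRNA decay, Hnrnpd (-0.77 ± 0.18, SE; adjusted p = 0.0272) and Zfp36l2 (-0.85 ± 0.22, SE; adjusted p = 0.0399) were lower, both of which bind AU-rich elements of short-lived mRNAs. They were called in 25 and 20 of the 30 fits that left out a library.

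The interferon-stimulated genes had the lowest median of any list, -1.31, and all 34 were negative, under each of the 3 scalings used. None was called by edgeR, DESeq2 or limma-voom, beside 1.73%, 5.19% and 1.85% of the genes each tested, and 4 reached an unadjusted p under 0.05, as did 17.2% of all genes, with 2 of the 34 not overlapping between groups (KO below), beside 5.21% of all genes. Mean log2 CPM over the list was 4.93, 5.24, 5.70 and 4.86 in KO libraries 1 to 4 and 5.58, 6.88, 6.72, 7.02, 6.63 and 5.55 in wild-type libraries 1 to 6. Wild-type libraries 1 and 6 thus lay at the level of KO library 3, and the other 4 wild-type libraries above all KO libraries. Ifit3, an interferon-induced tetratricopeptide protein, ran at 50.9, 63.3, 134 and 58.3 CPM in KO and 118, 336, 311, 435, 304 and 99.9 CPM in wild type (-1.80 ± 0.88, SE; adjusted p = 0.291). Ifit1 ran at 52.7, 65.4, 113 and 56.7 against 101, 179, 209, 278, 215 and 96.99 CPM (-1.32 ± 0.75, SE; adjusted p = 0.366). Isg15, a ubiquitin-like modifier, ran at 16.1, 22.8, 30.3 and 15.01 against 30.3, 78.9, 75.4, 79.6, 77.8 and 47.3 CPM, with the highest KO and the lowest wild-type library both at 30.3 CPM (-1.62 ± 0.87, SE; adjusted p = 0.335). The smallest p of the list belonged to Parp14 (-0.97 ± 0.41, SE; adjusted p = 0.223) and Irgm1 (-1.10 ± 0.48, SE; adjusted p = 0.23). In controls the list's median difference was -0.32 and with fibrils -0.16, and no member was called in either. None of 19 interferon regulatory factors and upstream genes was called (median -0.12; 2 at an unadjusted p under 0.05 and 1 called by DESeq2).

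**Figure D4:**
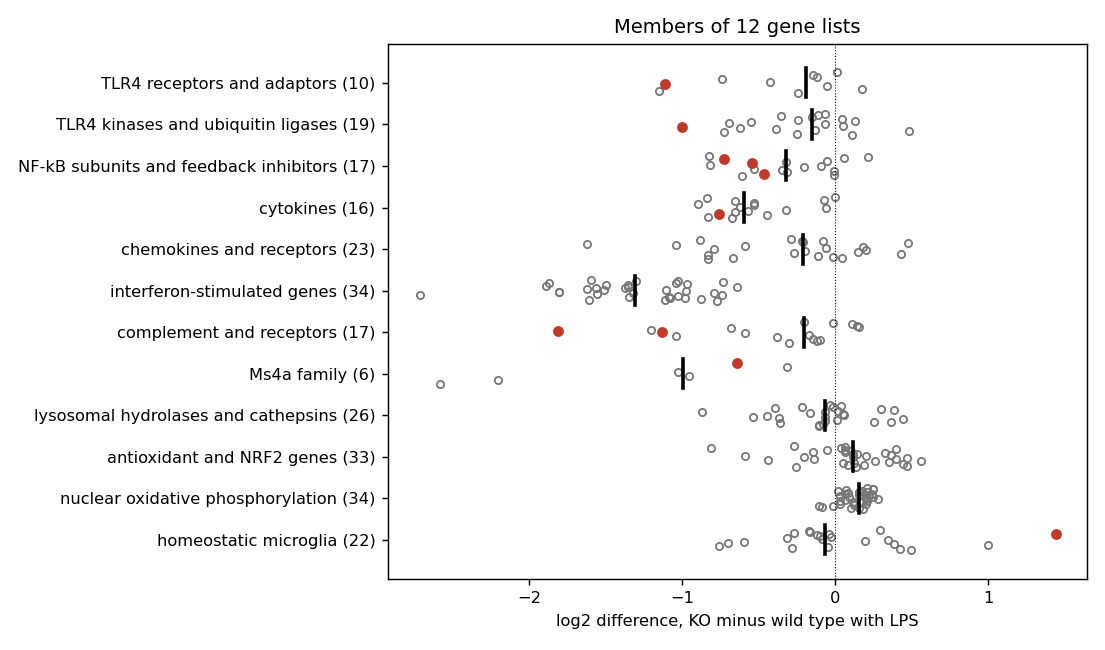
Log2 difference between KO and wild type with LPS (x axis) of each tested member of 12 gene lists, with the number tested in brackets. Filled points passed an adjusted p of 0.05, open points did not, and bars are medians. The interferon-stimulated genes lie lowest, with a median of -1.31 and no called member, and the nuclear genes of oxidative phosphorylation lie at 0.15.

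Other functions of activated microglia held single called genes, beside 1.73% called over all genes. Rac1, a GTPase of the NADPH oxidase and of actin, was lower at 357, 363, 375 and 372 CPM against 421, 438, 432, 425, 466 and 442 CPM (-0.25 ± 0.054, SE; adjusted p = 0.015), 1 of 11 genes of NADPH oxidase and nitric oxide synthesis, while Nos2 did not pass the filter on low counts. Sdha, the catalytic subunit of succinate dehydrogenase, was lower (-0.56 ± 0.14, SE; adjusted p = 0.0414), 1 of 21 genes of itaconate and the Krebs cycle. None of 33 antioxidant genes was called (median 0.11; 5 at an unadjusted p under 0.05 and 2 called by DESeq2), with Sod2 at -0.05 ± 0.14, Hmox1 at 0.40 ± 0.34 and Nqo1 at 0.12 ± 0.33 (SE; adjusted p = 0.881, 0.561 and 0.886). None of 34 nuclear genes of oxidative phosphorylation was called, and 31 of them were positive (median 0.15; 5 at an unadjusted p under 0.05 and 0 called by DESeq2). The endocytic receptor Lrp1 was lower at 692, 577, 979 and 546 CPM against 1466, 1316, 1568, 1155, 1222 and 2174 CPM (-1.09 ± 0.27, SE; adjusted p = 0.0398), 1 of 22 phagocytic and scavenger receptors. Itga5, the fibronectin receptor chain, was lower (-0.72 ± 0.19, SE; adjusted p = 0.0445), 1 of 15 integrin and adhesion genes, as was the sheddase Adam10 (-0.37 ± 0.093, SE; adjusted p = 0.0399), 1 of 17 metalloproteinase genes. Ptges2, a prostaglandin E synthase, was higher (0.44 ± 0.091, SE; adjusted p = 0.0127), 1 of 16 prostaglandin and leukotriene genes. Sall3 was the called member of 22 homeostatic microglia genes, higher at 5.83, 6.13, 6.15 and 3.60 CPM against 1.25, 2.84, 1.97, 1.34, 1.18 and 3.38 CPM (1.44 ± 0.35, SE; adjusted p = 0.0317). It is a relative of Sall1, a transcription factor of microglial identity. Sall3 lies with Gm17383 in chr18:80000001-90000000, where 5 of 25 tested genes were called (20%), 3 higher and 2 lower, beside 1.73% of all genes. No gene was called among 20 LRRK2 substrate Rabs and partners (median -0.10), 26 lysosomal hydrolases and cathepsins (-0.07, and 0.02 with library totals as the only scaling), 25 lysosomal membrane and V-ATPase genes (0.03), 21 autophagy genes (0.02), 19 Parkinson disease risk genes (-0.16), 25 antigen presentation genes (-0.33), 23 sterol and fatty acid synthesis genes (-0.51) or 18 disease-associated microglia genes (0.04). In the order given, 5, 5, 5, 3, 4, 3, 4 and 2 of them had an unadjusted p under 0.05 in edgeR, beside 17.2% of all genes. DESeq2 called 1, 1, 4, 2, 1, 1, 0 and 1 of them, beside 5.19% of the genes it tested. In the 30 fits that left out a library Rac1 was called 28 times, Ptges2 29, Lrp1 and Sall3 22, and Sdha, Itga5 and Adam10 17 times.

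The called genes also differed in composition. The most counted transcript of the 173 protein-coding genes that were lower had a median GC content of 53.9%, against 49.1% in the 55 that were higher and 50.1% over all 12741 protein-coding genes tested, with sequence for 12733. Their median lengths were 2831, 2916 and 2970 bases. Median levels were 5.33, 3.45 and 4.28 log2 CPM in the same order. Whether composition, level or length had a part in the calls was not tested.

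The same genotype difference was set beside its value without LPS and with fibrils, in libraries whose levels do not enter the LPS difference but whose spread the model shares. Of the 68 genes higher with LPS, 15 were called higher in controls (22.1% of the 68 and 68.2% of the 22 called there) and 18 with fibrils (26.5%, and 2.38% of the 756, or 5.27% of all genes, called there). Of the 180 lower genes, 16 were called lower in controls (8.89%, and 66.7% of 24) and 26 with fibrils (14.4%, and 4.94% of the 526, or 3.67% of all genes, called there). The sign in controls matched for 92.6% of the higher and 97.8% of the lower genes, beside 66.9% and 66.4% of all genes with those signs with LPS. With fibrils it matched for 66.2% and 55.6%, beside 52.2% and 48.4%. Genes called in all 3 treatments numbered 29, among them Lrrk2, Irak4, Nnt, Atp10d, Gm14548, Lilra6, Pirb, Pira2, C5ar2, Naip2, Naip3, Slc1a5, Sall3, Smg9 and Rpap3. The difference of Nnt was 0.95 ± 0.094 in controls, 1.08 ± 0.10 with LPS and 0.80 ± 0.10 with fibrils (SE). That of Lrrk2 was -2.23 ± 0.21, -2.09 ± 0.23 and -2.60 ± 0.24 (SE), and that of Pirb -0.62 ± 0.084, -0.62 ± 0.091 and -0.87 ± 0.093 (SE). Called with LPS alone were 200 genes, among them Myd88 (-0.29 ± 0.20 in controls), Ms4a7 (-0.014 ± 0.10), Rela (-0.23 ± 0.10) and Rps16 (-0.70 ± 0.46). The test of the difference itself between LPS and controls called 0 genes in edgeR and 0 in DESeq2, with 600 genes (4.18%) at an unadjusted p under 0.05, so for none of the 200 was the genotype difference shown to be larger with LPS than in controls. The other counts moved with single libraries too: that of the controls was 26 without wild-type control library 5, and that of the fibrils was 742 and 651 without KO fibril library 1 or 3 and 375, 419, 475 and 479 without wild-type fibril library 1, 2, 3 or 4.

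The genotype difference with LPS differed from that with fibrils for 161 genes (1.12%; 69, or 0.481%, above and 92, or 0.641%, below), 34 of them among the 248. Myd88 was -1.11 ± 0.22 with LPS and 0.10 ± 0.22 with fibrils (SE; adjusted p of the difference 0.0474). Rps16 was -3.03 ± 0.56 and 0.064 ± 0.52 (adjusted p 0.043), Csnk2b -0.58 ± 0.092 and 0.028 ± 0.094 (adjusted p 0.0316), and Itga5 -0.72 ± 0.19 and 0.40 ± 0.19 (adjusted p 0.0366). Atp10d was higher in both, by 1.34 ± 0.17 with LPS and 2.44 ± 0.20 with fibrils (adjusted p 0.0355), and Zfp61 was at 1.57 ± 0.18 and 0.51 ± 0.18, the second not called (adjusted p of the difference 0.0355). Galk2 and Noc4l were called in opposite directions in the 2 treatments: Galk2, an N-acetylgalactosamine kinase, at 0.23 ± 0.062 with LPS and -0.26 ± 0.065 with fibrils, and Noc4l, a ribosome assembly factor, at -0.47 ± 0.094 and 0.43 ± 0.10 (SE). With LPS, Galk2 was called in 7 and Noc4l in 28 of the 30 fits that left out a library. The count of 161 rested on single libraries: it was 1, 2, 524 and 73 without KO LPS library 1, 2, 3 or 4, and 1, 1, 2 and 6 without wild-type fibril library 1, 2, 3 or 4. It was 20, 42, 92, 95 and 332 without wild-type LPS library 1, 3, 4, 5 or 6, and 80, 628, 52, 455 and 42 without KO fibril library 1, 2, 3, 4 or 5. Without KO control library 4 or 6 it was 246 and 401, and without wild-type control library 6 it was 389. In the fibril comparison the median difference of astrocyte markers was 4.30 and of oligodendrocyte markers 4.73, beside 0.47 and 1.27 with LPS, and the part of other cells in it was not tested.

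**Figure D5:**
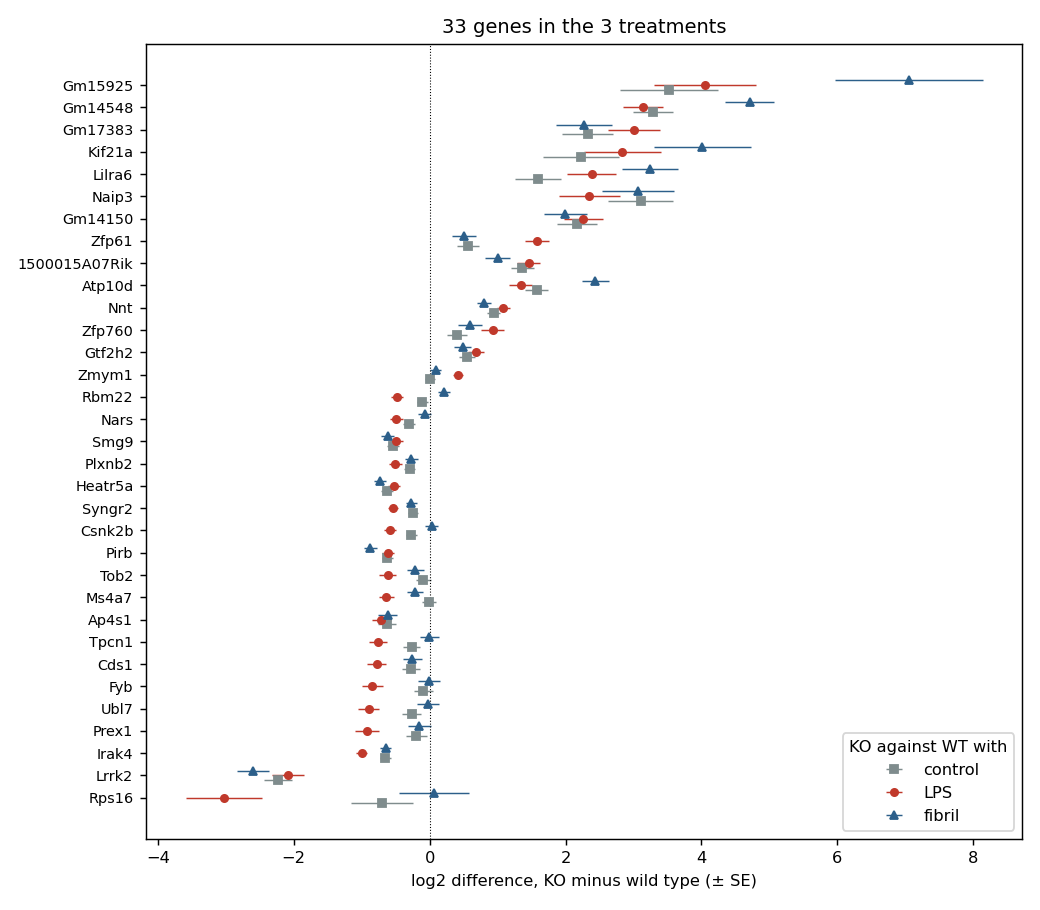
Log2 difference between KO and wild type (x axis, ± SE) of the 33 genes called in every fit that left out 1 library, in controls, with LPS and with fibrils. All 33 have the same sign in controls as with LPS, 16 were called in controls as well, and Rps16 lies at -3.03 with LPS and 0.06 with fibrils.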

How the data were processed

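Stranded total RNA libraries of mouse primary microglia were sequenced as single-end reads, per the labels' protocols. CASAVA 1.7.1, STAR 2.4.2a and mm10 are named in the submitters' processing notes. The deposited table gives raw expected counts for Ensembl transcripts, all whole numbers, and which program counted them is not stated in the labels. Transcripts were summed to genes with GENCODE M21 (GRCm38); 91320 of 94647 matched, and the rest, 0.779% to 0.891% of a library's counts, were left out. After edgeR's filter, TMM factors and a quasi-likelihood model with a mean per group (6 groups, 30 libraries) were fitted in edgeR 4.0.16 under R 4.3.3, with Benjamini-Hochberg adjustment over 14346 genes and a threshold of 0.05. CPM are counts scaled to the library total times its TMM factor, and log2 levels use a prior count of 2. Log2 differences are KO minus wild type.

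On simulated data for KO against wild type with LPS (14057 genes) 78% of genes changed 2-fold and 90% of those changed 4-fold were called. Only genes above a minimum mean level were changed there. Counts were drawn independently, without features shared by libraries such as mitochondrial rRNA, so these shares may not hold for the real libraries. Named genes are Lrrk2, the 10 most increased and 10 most decreased called genes whose mean log2 CPM reached 2, the 12 with the smallest p, up to 4 called members (or the 2 with the smallest p) of each of 45 pathway and 9 marker lists, some cytokine and stress genes, called genes in clusters and near Lrrk2, and genes that pass a test between treatments; 334 genes met it and a part is described, with the 33 genes called in all fits without 1 library chosen after their values were seen. The members and lists were chosen with earlier results of these data known. Alternatives were RLE (DESeq2) factors, library totals alone, other filters, DESeq2 1.42.0, limma-voom (limma 3.58.1), only the groups compared, a replicate block and each library left out. Chosen after seeing the data were leaving out wild-type LPS libraries 1 and 6, leaving out 7 libraries that stand apart, and mitochondrial rRNA, Y-linked genes or other-cell markers as covariates.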

Additional observations from a re-analysis of the deposited data

Results flagged for a closer look

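In 19 of 164 groups examined, 1 library stood apart from the others of its group by a gap that was large relative to the group's range; chance gives about 1 in 20.

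The library above the others was Atp10d in wild-type LPS library 1 (12.1 CPM; nearest 8.48), Gm17383 in wild-type LPS library 3 (1.79 CPM; nearest 1.00), Lilra6 in wild-type LPS library 4 (4.63 CPM; nearest 2.26), Gm15925 in wild-type LPS library 2 (0.339 CPM; nearest 0.0730) and Kif21a in wild-type LPS library 1 (4.75 CPM; nearest 1.39). Further highest values were those of Nfkb1 in wild-type LPS library 6 (355.5 CPM; nearest 239), Tnf in wild-type LPS library 6 (2757 CPM; nearest 1921), Il1b in wild-type LPS library 6 (2029 CPM; nearest 1249), Il6 in KO LPS library 3 (32.6 CPM; nearest 17.4) and Ptges2 in KO LPS library 4 (14.1 CPM; nearest 12.8). High values were also those of Ifit3 in KO LPS library 3 (134 CPM; nearest 63.3), Parp14 in KO LPS library 3 (599.6 CPM; nearest 374) and Galk2 in wild-type LPS library 5 (72.0 CPM; nearest 66.2).

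The library below the others was Lrrk2 in wild-type LPS library 6 (11.4 CPM; nearest 15.3), Zfp61 in KO LPS library 2 (2.71 CPM; nearest 3.31), 1500015A07Rik in wild-type LPS library 4 (2.39 CPM; nearest 3.87), Ikbkg in wild-type LPS library 1 (86.6 CPM; nearest 104) and Sall3 in KO LPS library 4 (3.60 CPM; nearest 5.83). A low value was also that of mt-Rnr2 in KO LPS library 4 (4814 CPM; nearest 7839).

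The genotype difference with LPS differed from that with fibrils (log2 difference of differences, adjusted p from the edgeR interaction) for 11 of the genes named: Zfp61 by 1.07 (adjusted p 0.0355), Atp10d by -1.10 (adjusted p 0.0355), Csnk2b by -0.61 (adjusted p 0.0316), Rps16 by -3.09 (adjusted p 0.043), Myd88 by -1.22 (adjusted p 0.0474), Itga5 by -1.12 (adjusted p 0.0366), Galk2 by 0.50 (adjusted p 0.0206), Noc4l by -0.90 (adjusted p 0.00496), Rbm22 by -0.70 (adjusted p 0.0206), Ubl7 by -0.87 (adjusted p 0.0474) and mt-Rnr2 by -2.05 (adjusted p 0.0474). Passing this test was itself a reason to name a gene, so the count of 11 is no result about the named genes. Over all genes, 161 passed this test, and 1 to 628 did when single libraries were left out.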

How the results depend on the processing

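The fall of Lrrk2 kept its direction and its side of the threshold under each alternative run (-10.3 to -12.1 CPM). The 248 genes called with LPS became 116 without a filter on low counts, 672 in DESeq2 and 1097 with only the groups compared, against 237 with RLE factors, 183 with library totals alone, 232 with another filter and 265 in limma-voom. They became 70 without wild-type LPS libraries 1 and 6, 1083 without 7 libraries that stand apart, 9 with mitochondrial rRNA and 30 with Y-linked genes as a covariate. In controls (46) DESeq2 gave 98, only the groups compared 17, leaving out 7 libraries 152 and other-cell markers as a covariate 91. With fibrils (1282) the counts were 826 without a filter, 1957 in DESeq2, 575 in limma-voom, 757 with only the groups compared, 2580 without 7 libraries and 108 with other-cell markers. For LPS against fibrils (161) they were 71, 1011, 21, 591 and 431 in the same 5 settings, 80 without wild-type LPS libraries 1 and 6, 1 with mitochondrial rRNA, 0 with Y-linked genes and 2 with other-cell markers. The count for LPS against controls was 0 throughout. Leaving out 1 library gave 35 to 478 with LPS, 26 to 58 in controls, 375 to 1639 with fibrils and 1 to 628 for LPS against fibrils. The cause of these moves was not tested.

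The labels do not say whether equal replicate numbers mark a shared culture or batch. Deviations from the group mean in KO and wild-type LPS libraries of the same number correlated at -0.519, 0.316, 0.144 and 0.0628. So few values cannot decide whether the libraries are paired. With a replicate block 125 genes were called with LPS (248 without it), 2114 with fibrils (1282) and 714 for LPS against fibrils (161). A covariate built from a gene gave no value for that gene. With 4 and 6 libraries and totals from 14277344 counts, differences within the spread between libraries were not detectable.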

Other observations

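Other gene groups held no called gene with LPS. Over all genes edgeR called 1.73%, and 17.2% had an unadjusted p under 0.05 in edgeR. DESeq2 called 5.19% of the genes it tested. Of 30 cell cycle genes 25 were positive (median 0.25) and of 22 replication histones 20 (median 0.28), with 0 at an unadjusted p under 0.05 in either group and 0 called by DESeq2. The 19 glycolysis and hypoxia genes had a median of 0.17 (5 at an unadjusted p under 0.05), the 13 mitochondrially encoded mRNA genes -0.08 (2), the 12 iron-handling genes 0.07 (3) and the 22 genes of the unfolded protein and integrated stress responses 0.05 (4), and DESeq2 called 0 of each. The 6 Fc gamma receptor genes had a median of -0.59, with 3 at an unadjusted p under 0.05 and 2 called by DESeq2. The 14 purinergic genes (-0.09), 10 LXR genes (0.04), 16 Bcl2 family genes (-0.01) and 16 circadian clock genes (-0.16) held 1, 0, 1 and 3 at an unadjusted p under 0.05. The medians of the Bcl2 family, of the homeostatic microglia genes and of the paired immunoglobulin-like receptors turned positive with library totals as the only scaling, at 0.07, 0.02 and 0.04.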
